A study of Mus musculus with 4 samples.

Results

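Mucins are the large, heavily O-glycosylated proteins of epithelial surfaces, and 10 of them were followed here across the mouse colon profiles of this study, namely *Muc1*, *Muc2*, *Muc3*, *Muc4*, *Muc5ac*, *Muc5b*, *Muc6*, *Muc13*, *Muc16* and *Muc20*. Members were taken by gene name from the array files. Of the 10 genes, 8 had at least 1 probe under their own name, with 11 probes in all, out of 22368 named genes and 31375 named probes on the array. *Muc6* and *Muc16* had no probe under that name. A further 3 probes carried only an Ensembl transcript as their name but were described as mucin 2, 6 or 16, and they are given apart as the described probes. The study compared whole descending colon from male mice with an intact *Pla2g3* gene (*Pla2g3*+/+, WT) and littermates lacking it (*Pla2g3*-/-, KO), on the B6.129 (n3) background and 42 weeks old, after saline vehicle or the colon carcinogen azoxymethane (AOM). AOM was given as 6 weekly injections of 10 mg/kg into the peritoneum, and colons were collected 28 weeks after the final one. *Pla2g3* encodes a secreted phospholipase A2, and the deletion was not restricted to a cell type. Each of the 4 groups was 1 pool of RNA from several mice on 1 one-color array. A pool held 3 to 5 mice per the deposited description and 4 mice per the legend of the array experiment. There was therefore no replicate, no fold change below has a p-value, and each comparison is between 2 pools.

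In the colon, gel-forming mucins are secreted by goblet cells and build the mucus that keeps bacteria off the epithelium. *Muc2* is the main one there, while *Muc5ac* and *Muc6* are typical of the stomach and *Muc5b* of the airways and salivary glands. Membrane mucins such as *Muc1*, *Muc3*, *Muc4*, *Muc13* and *Muc20* stay anchored in the apical membrane and form the glycocalyx. Both kinds become functional only after enzymes of the Golgi apparatus have attached and extended O-linked sugar chains, and loss of the mature goblet cell and colonocyte program is a known feature of colon tumors.

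The results below turn on *Muc2* and *Muc3*, each read by 2 probes of 60 bases, and 3 of these 4 probes are shown so that a reader can see what part of the transcript was sampled. The named *Muc2* probe lies at chr7:148940000-148940059 of mm9 on the plus strand. The probe described as mucin 2 spans chr7:148886795-148887262 on the same strand, a span of 468 bases that holds the 60 bases of the probe with a gap, and it lies upstream of the named probe. The *Muc3* probe shown lies at chr5:137626469-137626528 on the minus strand. Capitals mark a stretch of 10 bases that it holds in 2 copies, and 4 of the 39429 probes on the array contain that stretch.
Muc2 named probe: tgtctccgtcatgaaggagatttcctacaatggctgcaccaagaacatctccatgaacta
Muc2 described probe: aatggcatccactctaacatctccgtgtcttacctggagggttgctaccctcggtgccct
Muc3 repeat probe: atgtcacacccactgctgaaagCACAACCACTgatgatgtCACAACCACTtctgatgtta
The other *Muc3* probe lies at chr5:137610855-137610914, also on the minus strand, and its longest repeated stretch has 6 bases. It was the brighter of the pair and stands for the gene below. The RefSeq gene table lists both a *Muc3* and a *Muc3a* gene on chromosome 5, and which of them either probe reads was not tested.

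Signals are given as relative signals, which is the processed fluorescence of a spot over the 75th percentile of all spots of that array. The percentile was 646 and 649.8 for WT and KO with vehicle and 1309 and 1169 after AOM. Per array, 64.8% to 69.4% of 43020 spots were well above background, and none was saturated. The choice of scaling matters for AOM over vehicle. Without it, each log2 ratio between signals above background would be 1.02 higher in WT and 0.85 higher in the pools labeled KO, so AOM/vehicle log2 ratios below 0 by less than that would turn positive, whereas KO/WT ratios would move by 0.01 with vehicle and −0.16 after AOM. Each mucin probe was printed once per array. For 399 other probes printed 10 times, the SD of a log2 ratio between 2 arrays from single spots had a median of 0.10 to 0.12 and a 95th percentile of 0.69 to 0.73, which covers the spread within a slide but not the spread between mice. The targeted gene itself went against the labels. *Pla2g3* (probe at chr11:3394109-3394168) gave relative signals of 0.531 for WT and 0.656 for KO with vehicle, and of 0.232 and 1.40 after AOM. The array labeled KO thus exceeded its WT counterpart 1.23-fold with vehicle and 6.01-fold after AOM, and the other 2 *Pla2g3* probes were higher on the arrays labeled KO as well. Whether the 3 probes lie inside the deleted part was not tested. WT and KO below are therefore names of labeled pools, and every direction between them follows the labels. Where 4 values of a gene are listed, they are relative signals in the order WT vehicle, KO vehicle, WT AOM and KO AOM.

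With vehicle, none of the brighter mucin probes passed 2-fold between the pools, while the *Muc3* repeat probe did, at 20.1-fold lower in the pool labeled KO. Of the 8 genes with a probe, 5 had a value, and 0 passed 2-fold in either direction between the pools labeled KO and WT, where 1.92% of 16391 genes were over 2-fold higher with the KO label and 1.32% lower. The median log2 KO/WT ratio of the 5 mucins was −0.16, and that of all genes was −0.02. With so few genes past 2-fold on these arrays, a count of 0 in 5 says nothing particular of the mucins, and it is 1 lower with the mean over the probes or the dimmest probe of a gene. The remaining 3 have no ratio. *Muc1* and *Muc5b* were not well above background in either pool, and *Muc5ac* was in WT alone, at a signal no higher than that of the other pool.

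After AOM, the pools differed in 5 mucins of 8. *Muc2*, *Muc3*, *Muc5b* and *Muc13* were over 2-fold higher in the pool labeled KO and *Muc20* over 2-fold lower, where 15.1% of 17194 genes were higher and 12.9% lower. The median log2 ratio of the 8 mucins was 1.20 and that of all genes was 0.03. In WT mice, AOM against vehicle gave 3 mucins over 2-fold lower, *Muc2*, *Muc3* and *Muc13*, and 2 over 2-fold higher, *Muc1* and *Muc20*, of 7 with a value, where 22.4% of 17276 genes were lower and 15.1% higher. In the pools labeled KO, AOM against vehicle gave 2 mucins over 2-fold higher, *Muc3* and *Muc5b*, and 0 over 2-fold lower, of 8 with a value, where 9.65% of 16514 genes were higher and 15.1% lower. The KO/WT comparison after AOM shares its WT array with the AOM/vehicle comparison in WT, so the 2 sets of values are not independent. In whole colon RNA, fewer cells of a type and less RNA per cell cannot be told apart.

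**Figure D1:**
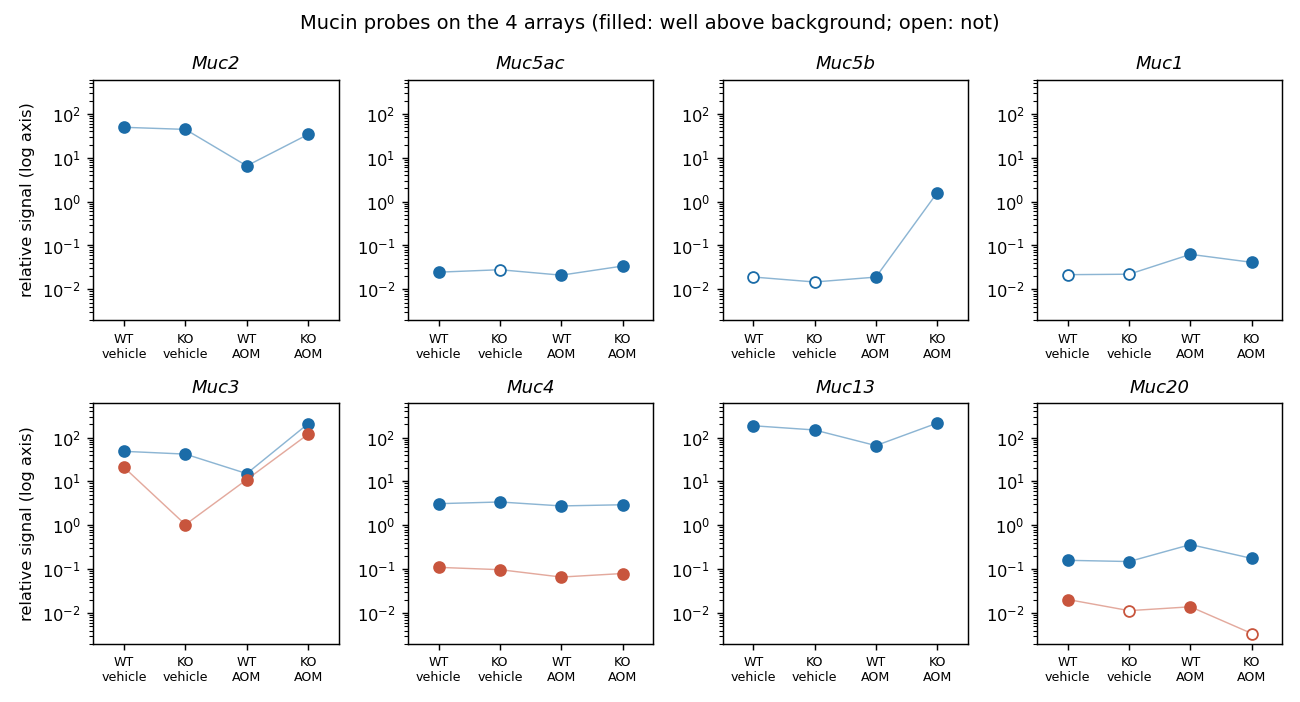
Relative signal on a log axis (processed signal over the 75th percentile of the array) of the 11 mucin probes on the 4 arrays, with 1 array per group and no error bars. Each color is 1 probe, lines only join its points, and open points were not well above background. *Muc2*, *Muc3* and *Muc13* are lowest after AOM in WT on their brighter probe, and *Muc5b* stands out on the array labeled KO after AOM.

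**Figure D2:**
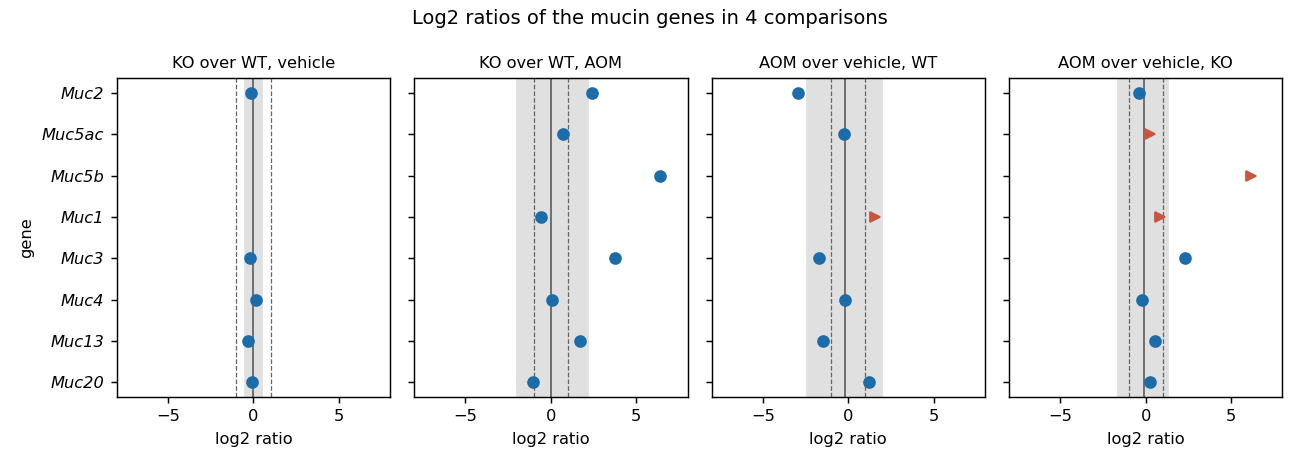
Log2 ratios of the 8 mucin genes in the 4 comparisons. Circles are ratios between 2 signals above background, triangles are lower bounds, the gray band holds the 5th to the 95th percentile of all genes, the solid line is the median of all genes, and dashed lines mark 2-fold. All 5 values with vehicle lie inside the band, whereas after AOM *Muc2*, *Muc3* and *Muc5b* lie above it in the KO/WT comparison.

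Among the gel-forming mucins, *Muc2* had relative signals of 49.4 in WT and 44.3 in the pool labeled KO with vehicle, 6.53 in WT after AOM and 34.0 in the pool labeled KO after AOM. The WT pool after AOM was the low one, and the other 3 lay between 34.0 and 49.4. *Muc2* was 7.57-fold lower after AOM than with vehicle in WT and 1.30-fold lower in the pools labeled KO, where the log2 ratio of −0.38 becomes 0.46 without scaling. After AOM it was 5.20-fold higher in the pool labeled KO than in WT, a log2 ratio of 2.38, whereas with vehicle the log2 ratio was −0.16. The described *Muc2* probe, shown above, gave 2.38, 2.21, 0.209 and 1.35 in the same order of pools. It was 11.4-fold lower after AOM in WT, 1.63-fold lower in the pools labeled KO and 6.49-fold higher in the pool labeled KO than in WT after AOM. The low pool was thus the same on both probes, which lie at different places of the locus. The all-gene range from the 5th to the 95th percentile was −2.39 to 1.998 for AOM/vehicle in WT, and the *Muc2* ratio of −2.92 lay below it.

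*Muc5b* had a relative signal of 0.0191 in WT and 0.0147 in the pool labeled KO with vehicle, both not well above background, 0.0190 in WT after AOM, which was, and 1.60 in the pool labeled KO after AOM. A single pool was therefore high. There it was 83.9-fold higher than in WT after AOM and at least 70.2-fold higher than in the pool labeled KO with vehicle. The gene rests on 1 probe, at chr7:149058931-149058990 of mm9. With normexp background correction and quantile normalization the log2 ratio was 3.55 in place of 6.39 for KO/WT and 3.70 in place of 6.13 for AOM/vehicle, still past 2-fold. On the same array the squamous and basal epithelial keratin *Krt5*, named here after its value was seen, was 15.3 against 0.0266 in WT after AOM, and the small mucin-like gene *Mucl1* was at least 15.5-fold higher than in WT. The 12 genes of the stratified squamous list had a summed relative signal of 8.39 and 7.50 with vehicle. After AOM the sum was 8.60 in WT and 25.3 in the pool labeled KO, of which *Krt5* made up 15.3. Of the 10 with a value, 1 was over 2-fold higher in the pool labeled KO than in WT after AOM, *Krt5* itself. The 2 over 2-fold lower were *Krt4* and *Sprr1a*. Over all genes, 15.1% were higher and 12.9% lower. For AOM/vehicle in the pools labeled KO, 4 of 10 were over 2-fold higher and 2 lower, *Dsg3* and *Sprr1a*. The 4 were *Krt5* (297-fold), *Krt14* (36.4-fold), *Krt6a* (at least 8.76-fold) and *Lor* (4.56-fold). The all-gene shares there were 9.65% higher and 15.1% lower. *Trp63*, a basal cell regulator and the brightest of that list, was 3.53 and 3.99 after AOM. The part of squamous tissue in the *Muc5b* signal was not tested.

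*Muc5ac* stayed near the detection limit, with 0.0247 in WT and 0.0280 in the pool labeled KO with vehicle and 0.0211 and 0.0340 after AOM, the second of these not well above background. Its log2 ratio was 0.69 for KO/WT after AOM and −0.23 for AOM/vehicle in WT, none past 2-fold. The described *Muc6* probe was above background in 1 pool, WT after AOM, at 0.0515, at least 3.10-fold higher than WT with vehicle and at least 3.52-fold higher than the pool labeled KO after AOM. The gastric mucous cell list, 9 genes with *Muc5ac* among them, had summed relative signals of 0.393 and 0.734 with vehicle and 1.34 and 0.444 after AOM. Its brightest genes were the gastrokine *Gkn3* (0.187, 0.207, 0.437 and 0.147) and the surface antigen *Psca* (0.0340, 0.289, 0.0296 and 0.122).

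Among the membrane mucins, *Muc13*, a mucin of the intestinal glycocalyx, had relative signals of 186 in WT and 149 in the pool labeled KO with vehicle and 65.6 and 214 after AOM. The order of the pools was as for *Muc2* except that the pool labeled KO after AOM was the highest. *Muc13* was 2.83-fold lower after AOM than with vehicle in WT, 1.44-fold higher in the pools labeled KO, and 3.26-fold higher in the pool labeled KO than in WT after AOM. It rests on 1 probe, at chr16:33819909-33819968. In WT the log2 AOM/vehicle ratio was −1.50 for *Muc13* and −1.69 for *Muc3*, and with quantile normalization it was −0.57 and −0.99, no longer past 2-fold.

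*Muc3*, a membrane mucin of the intestinal brush border, differed most among the membrane mucins and also between its 2 probes. On the brighter probe, relative signals were 48.6 in WT and 42.0 in the pool labeled KO with vehicle and 15.1 and 206 after AOM. The pool labeled KO after AOM was 13.7-fold above WT after AOM and 4.91-fold above the pool labeled KO with vehicle, while WT after AOM was 3.22-fold below WT with vehicle. On the repeat probe shown above the values were 20.9, 1.04, 11.0 and 119. Both probes placed the pool labeled KO after AOM highest, by 13.7-fold and 10.8-fold over WT after AOM. They disagreed with vehicle, where the pool labeled KO was 1.16-fold lower on the brighter probe and 20.1-fold lower on the repeat probe, log2 ratios of −0.21 and −4.33. As a consequence AOM/vehicle in the pools labeled KO was 4.91-fold on one and 115-fold on the other. The repeat probe's signal was well above background on all 4 arrays, 13478 and 674 with vehicle and 14410 and 139042 after AOM before scaling.

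**Figure D3:**
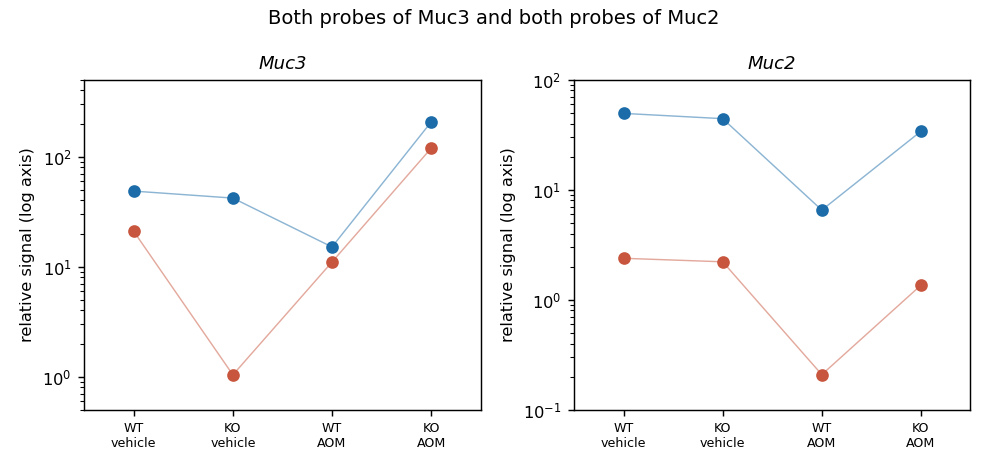
Relative signal on a log axis of both probes of *Muc3* (left; blue, the brighter probe; red, the repeat probe) and both probes of *Muc2* (right; blue, the named probe; red, the described probe) on the 4 arrays, 1 array per group. The *Muc2* probes run in parallel, whereas the *Muc3* probes part on the array labeled KO with vehicle, 42.0 against 1.04.

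*Muc4*, a membrane mucin with growth factor-like domains, varied least of the 8 genes. Its relative signals were 3.12 and 3.40 with vehicle and 2.77 and 2.94 after AOM, a range of 1.23-fold from the lowest to the highest pool. Its dimmer probe gave 0.110, 0.0975, 0.0662 and 0.0797, and no ratio of either probe passed 2-fold. *Muc20* ran the other way from *Muc2*, with 0.159 and 0.150 with vehicle, 0.364 in WT after AOM and 0.176 in the pool labeled KO after AOM. It was 2.29-fold higher after AOM in WT and 2.07-fold lower in the pool labeled KO than in WT after AOM, just past the threshold. Its dimmer probe was above background only on the arrays of WT mice, at 0.0204 and 0.0139, and was 1.47-fold lower after AOM on this scale, less than the shift without scaling. *Muc1*, the membrane mucin of many glandular epithelia, was not above background with vehicle, at 0.0216 and 0.0222, and reached 0.0628 in WT and 0.0413 in the pool labeled KO after AOM. It was at least 2.91-fold higher after AOM than with vehicle in WT and at least 1.82-fold higher in the pools labeled KO, and its log2 KO/WT ratio after AOM was −0.61. With normexp background correction and quantile normalization, the log2 AOM/vehicle ratio in WT was 0.45 for *Muc1* and 0.73 for *Muc20*, and the KO/WT ratio of *Muc20* after AOM was −0.62, none of them past 2-fold. The described *Muc16* probe was above background in all 4 pools, at 0.0657 and 0.118 with vehicle and 0.392 and 0.187 after AOM. Its AOM/vehicle ratio was 5.96-fold in WT and 1.58-fold in the pools labeled KO. *Muc16* is known from mesothelium, whose list of 6 genes had summed relative signals of 102 and 110 with vehicle and 73.3 and 113 after AOM. Of these sums *Krt19*, which colon epithelium also expresses, made up 101, 109, 70.0 and 113. After AOM in WT, 1 of the 6 genes was over 2-fold higher, *Msln* at 0.371, 0.284, 3.32 and 0.0236, and 4 were over 2-fold lower. Their part in the *Muc16* signal was not tested. *Muc1*, the brighter *Muc20* probe and the described *Muc16* and *Muc6* probes were thus highest in WT after AOM, where *Muc2*, *Muc13* and the brighter *Muc3* probe were lowest.

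The promoters of *Muc2*, *Muc3* and *Muc13*, the 3 mucins that were over 2-fold lower in WT after AOM and over 2-fold higher in the pool labeled KO than in WT after AOM, are shown as the 250 bases before the RefSeq start on GRCm38.p6, 5′ to 3′ on the strand of the gene. They lie at chr7:141690090-141690339 (plus strand), chr5:137166047-137166296 (minus strand) and chr16:33793787-33794036 (plus strand; the upstream one of 2 starts). Capitals mark GATAA, the core letters read by GATA factors, and TTTAT, the core letters read by Cdx factors, on either strand, and the 2 can overlap by 4 letters.
Muc2 promoter: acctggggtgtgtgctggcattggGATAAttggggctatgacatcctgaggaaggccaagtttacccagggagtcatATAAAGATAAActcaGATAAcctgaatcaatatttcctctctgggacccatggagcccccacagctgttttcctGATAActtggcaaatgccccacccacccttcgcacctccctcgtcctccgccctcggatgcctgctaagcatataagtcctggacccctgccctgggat
Muc3 promoter: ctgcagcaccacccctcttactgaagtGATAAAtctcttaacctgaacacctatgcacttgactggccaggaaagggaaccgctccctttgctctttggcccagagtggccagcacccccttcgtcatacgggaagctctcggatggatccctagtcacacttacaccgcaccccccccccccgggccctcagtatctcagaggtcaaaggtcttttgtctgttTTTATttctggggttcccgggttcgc
Muc13 promoter: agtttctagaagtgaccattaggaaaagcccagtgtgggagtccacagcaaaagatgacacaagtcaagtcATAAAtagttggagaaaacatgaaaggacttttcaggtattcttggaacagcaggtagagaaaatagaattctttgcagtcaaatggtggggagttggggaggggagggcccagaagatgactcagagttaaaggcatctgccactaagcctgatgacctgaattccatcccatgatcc
GATAA occurred 4 times in the *Muc2* window, 1 time in that of *Muc3* and 0 times in that of *Muc13*, and 22.6% of the 32851 windows of that length in the table hold it at least once. TTTAT occurred 2, 2 and 1 times, and 37.3% of all windows hold it. The window of the other *Muc13* start, at chr16:33794239-33794488, holds 0 of either. CAGCTG, an E-box that basic helix-loop-helix factors such as Atoh1 read, occurred 1 time in the *Muc2* window and in neither of the others, and 13% of all windows hold it. A match is a run of letters and not a measured site. *Cdx2*, the intestinal homeobox factor, was 9.07 and 12.3 with vehicle and 0.751 and 2.20 after AOM, and *Atoh1*, the goblet lineage factor, 4.43, 4.70, 0.243 and 2.12. Both were below vehicle in both pools after AOM, and lower in WT. Whether either factor acts on these mucins was not tested.

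The genes with the profile nearest to *Muc2* over the 4 arrays, by the root mean square distance between log2 profiles centered on their own mean, were *Ces1d*, *Hand2*, *Slc16a9*, *Kbtbd11* and *Kcnk3*, at distances of 0.041 to 0.069 among 14788 genes above background on all 4 arrays. *Kbtbd11*, for example, was 6.86, 6.81, 0.917 and 5.16, and 107 genes lay within a log2 distance of 0.25 of *Muc2*. Nearest to *Muc13* were *Tmem45b*, *Synpo*, *Tcp11*, *Mfsd9* and *Acad11*, at 0.028 to 0.059, and 395 genes lay within the same distance. *Tmem45b* was 38.4, 30.6, 13.2 and 42.0. With 4 points to a profile such likeness is shared by many genes.

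Most genes for the proteins that build mucus together with *Muc2* were over 2-fold lower after AOM in both genotypes. Of 12 mucus layer genes on the array, 8 of the 11 with a value were over 2-fold lower after AOM in WT and 1 higher, with a median log2 ratio of −3.46, and in the pools labeled KO 8 were lower and 0 higher, with a median of −1.33. The medians over all genes were −0.17 and −0.08. Of all genes, 22.4% were over 2-fold lower and 15.1% higher in WT. In the pools labeled KO, 15.1% were lower and 9.65% higher. The count in the pools labeled KO depends on the scaling. Log2 ratios there were −1.27 for *Zg16*, −1.23 for *Clca1* and −1.33 for *Tff3*. Without scaling each would be 0.85 higher and no longer past 2-fold. The lectin-like *Zg16* was 444 and 404 with vehicle and 20.0 and 168 after AOM, the protease-like *Clca1* 336, 313, 30.5 and 133, and the trefoil peptide *Tff3* 261, 259, 29.1 and 103. *Fcgbp*, which is linked to the *Muc2* network, was 98.8, 80.5, 11.1 and 72.8, with WT after AOM low and the pool labeled KO close to vehicle as for *Muc2*. *Muc2* itself was 1.30-fold lower after AOM in the pools labeled KO, against 2.41-fold for *Zg16* and 2.52-fold for *Tff3*. The 3 members furthest below vehicle after AOM in the pools labeled KO were *Retnlb*, *Ang4* and *Itln1*. *Retnlb*, a secreted goblet cell protein, was 181 and 167 with vehicle and 1.18 and 0.595 after AOM, 154-fold lower in WT and 281-fold lower in the pools labeled KO. *Ang4*, a ribonuclease, was 131, 107, 4.5997 and 0.468, and *Itln1*, an intelectin, was 20.6, 14.5, 18.8 and 0.403, near its vehicle level after AOM in WT and 36.0-fold lower in the pools labeled KO. In the KO/WT comparison after AOM, 6 mucus layer genes were over 2-fold higher and 4 lower. The shares over all genes were 15.1% and 12.9%. The 4 lower genes included *Itln1*, *Ang4* and the gastric trefoil peptide *Tff1*, which was 0.567 in WT and 0.0210 in the pool labeled KO. With vehicle, *Tff2*, a trefoil peptide of stomach and pancreas, was at least 4.86-fold higher in the pool labeled KO.

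The enzymes that start mucin O-glycans, the GalNAc transferases, followed in part. All 14 were above background on all 4 arrays. After AOM, 8 of 14 were over 2-fold lower in WT and 0 higher, 2 were lower and 2 higher in the pools labeled KO, and 5 were higher and 0 lower in the pool labeled KO than in WT. Over all genes, 22.4% were lower and 15.1% higher in WT, and 15.1% lower and 9.65% higher in the pools labeled KO. In the KO/WT comparison after AOM, 15.1% of all genes were higher and 12.9% lower. The counts of 2 in the pools labeled KO are near their shares, and the same shares apply to the lists below. Counts of AOM against vehicle, here and in the lists below, also depend on the scaling. Without it, log2 ratios would be 1.02 higher in WT and 0.85 higher in the pools labeled KO. *Galnt7*, *Galnt12*, *Galnt14* and *Galnt16*, at −1.76, −1.55, −1.62 and −1.07 in WT, would then not be past 2-fold. *Galnt12*, the brightest, was 15.8, 16.2, 5.39 and 6.98, and *Galnt10* was 12.5, 13.2, 2.29 and 5.84. *Galnt6* was 11.4, 13.4, 2.67 and 14.0, and *Galnt5* 0.779, 0.755, 0.0535 and 0.384. *Galnt15* and *Galnt16* were highest in the pool labeled KO after AOM, at 1.34 and 0.813, as *Muc3* and *Muc13* were.

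Of 30 enzymes and transporters that make, extend or cap the chains, 21 of 29 with a value were over 2-fold lower after AOM in WT and 1 higher, and 8 of 28 lower and 5 higher in the pools labeled KO. Several would not be past 2-fold in WT without scaling, among them *B3galt5* at −1.94, *Fut4* at −1.86 and *C1galt1* at −1.05. In the KO/WT comparison after AOM, 15 of 28 were higher and 2 lower, with a median log2 ratio of 1.07. *B3gnt6*, which makes the core 3 structure typical of colonic mucin, was 1.75 and 2.15 with vehicle and 0.0618 and 0.0840 after AOM, low in both pools by 28.3-fold and 25.6-fold. *B3gnt7* was 0.906, 0.640, 0.0396 and 1.56, and the sulfate transporter *Slc26a2* 1.83, 1.57, 0.192 and 2.48, low in WT after AOM alone. The brightest of the list, the sialyltransferase *St6galnac6*, was 61.3, 65.1, 11.8 and 24.5, and *B4galnt2*, which makes the Sda antigen, 48.4, 56.1, 8.58 and 16.9. With vehicle 1 gene passed 2-fold, *B3gnt3*, at 1.46 in WT and 0.579 in the pool labeled KO.

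Of the regulators of goblet cells and of secretory stress, 8 of 14 were over 2-fold lower after AOM in WT and 0 higher, 6 were lower and 0 higher in the pools labeled KO, and 7 were higher and 0 lower in the pool labeled KO than in WT. Of the 6, *Xbp1*, *Atoh1* and *Gfi1*, at −1.001, −1.15 and −1.63, would not be past 2-fold without scaling. *Spdef*, needed for goblet cell maturation, was 22.0, 25.8, 1.09 and 4.77, and *Creb3l4* 7.27, 6.96, 0.993 and 1.27. *Klf4*, a factor of differentiated goblet cells and colonocytes, was 24.8, 23.6, 4.23 and 42.0, and *Creb3l1* 4.89, 4.78, 0.804 and 4.26, both low in WT after AOM and not in the pool labeled KO. *Xbp1*, of the unfolded protein response, was 30.7, 29.0, 16.2 and 14.5. In the list for granule release and mucus hydration, 9 of 16 were over 2-fold lower after AOM in WT and 1 higher, 0 lower and 2 higher in the pools labeled KO, and 8 higher and 1 lower in the pool labeled KO than in WT. The chloride-bicarbonate exchanger *Slc26a3* was 9.97, 10.2, 0.140 and 26.8, and the bicarbonate cotransporter *Slc4a4* 0.553, 0.413, 0.118 and 1.85, both highest in the pool labeled KO after AOM. *Mep1b*, a protease that releases *Muc2* mucus from the epithelium, was 15.3, 13.8, 0.823 and 7.50.

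Of 9 other mucins and mucin-like genes on the array, *Muc15* and the gene listed as *Muc19* on the array, *Smgc* in RefSeq, were not above background on any array. The sialomucin *Cd164* was 28.7, 26.7, 18.3 and 20.7 and the endothelial adhesion molecule *Mcam* 13.3, 13.9, 20.7 and 14.9, with no ratio past 2-fold. *Ovgp1*, an oviduct glycoprotein, was 3.53-fold higher after AOM in WT and 2.47-fold higher in the pools labeled KO. The endothelial sialomucin *Emcn* was 0.117, 0.133, 0.279 and 0.112.

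**Figure D4:**
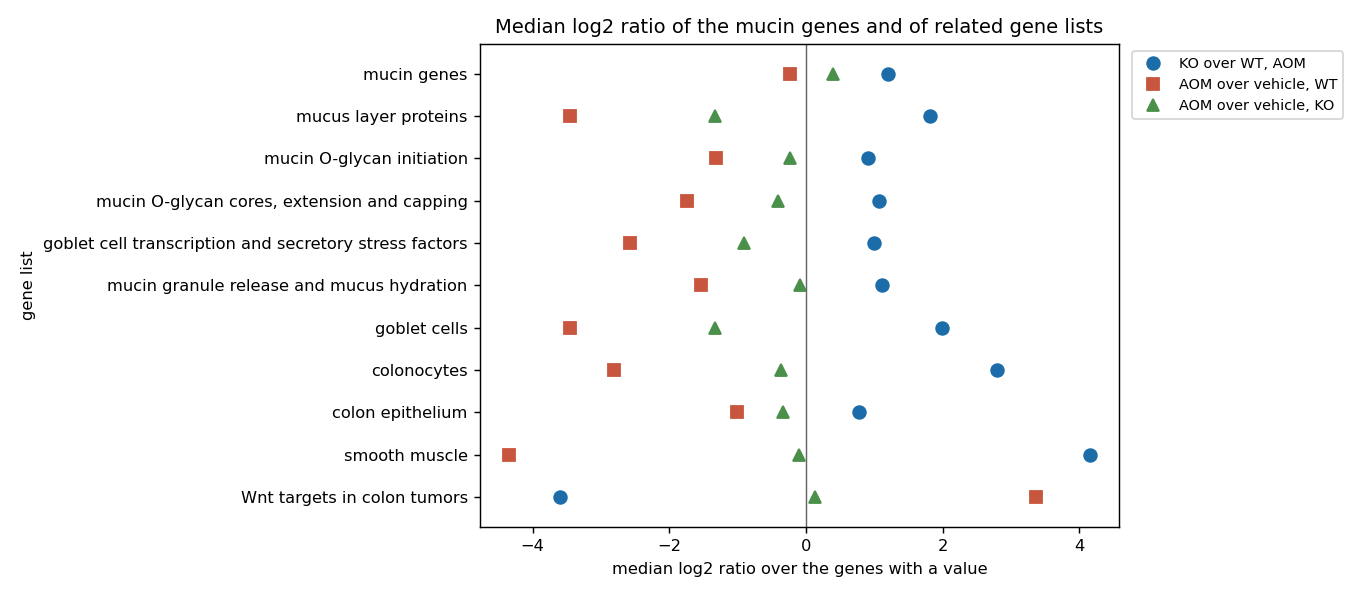
Median log2 ratio over the genes with a value for the 8 mucins and for 10 fixed gene lists, in the KO/WT comparison after AOM (circles) and in AOM over vehicle for WT (squares) and for the pools labeled KO (triangles); each ratio is between 2 arrays and has no error. The mucin median in WT, −0.23, is the value of *Muc5ac*, which lay near the detection limit. In the pools labeled KO it is 0.40, between the *Muc5ac* bound of 0.28 and *Muc13* at 0.52. The goblet cell list had −3.46 in WT and −1.33 in the pools labeled KO, and *Muc2* alone −2.92 and −0.38.

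Marker genes show what else moved on the same arrays. Epithelial genes were above background in every pool, with *Lgals4* at 320, 302, 126 and 230 and the epithelial keratin *Krt8* at 200, 203, 126 and 198, both also expressed by other simple epithelia. All 12 genes of the colon epithelium list were above background on all 4 arrays, with 6 over 2-fold lower after AOM in WT and *Cdx2* 12.1-fold lower. Goblet cell markers had summed relative signals of 1944 and 1894 with vehicle and 142 and 622 after AOM. All 11 were over 2-fold lower after AOM in WT, and 9 were in the pools labeled KO. Without scaling, *Zg16*, *Clca1*, *Tff3* and *Atoh1* would not be past 2-fold in the pools labeled KO, nor would *Sytl2* in WT. Colonocyte markers summed to 746, 773, 84.8 and 431, with 10 of 11 lower in WT after AOM, and *Guca2a* was 294, 279, 4.84 and 106. Outside the epithelium, the 10 smooth muscle genes summed to 522, 548, 31.7 and 502, and all 10 were over 2-fold lower in WT after AOM, with *Tagln* at 194, 202, 11.6 and 158. The 12 Wnt targets of colon tumors summed to 8.57, 8.65, 84.5 and 9.52 and were all over 2-fold higher in WT after AOM, with *Rnf43* at 1.74, 1.76, 13.7 and 3.17. The sample of WT after AOM thus differed from the other 3 in muscle as well as in epithelium, and the part of tissue makeup in the mucin ratios was not tested. With vehicle, the pancreatic acinar list summed to 0.965 in WT and 46.3 in the pool labeled KO, with all 12 genes over 2-fold higher there, while no mucin was past 2-fold on its brighter probe.

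Further lists moved with the 2 AOM arrays. Paneth cell genes summed to 30.1, 27.9, 98.8 and 6.17, with *Lyz1* at 8.79, 12.3, 29.3 and 5.52, and neutrophil genes to 55.7, 54.8, 94.5 and 62.2, of which the receptor gene *Csf3r* made up 49.5, 50.02, 44.4 and 53.8. After AOM in WT, 5 of 9 neutrophil genes with a value were over 2-fold higher and 0 lower, against 15.1% and 22.4% of all genes. The 5 were *S100a8* (196-fold), *S100a9* (160-fold), *Retnlg* (10.3-fold), *Mpo* (at least 10.1-fold) and *Cxcr2* (6.15-fold). B cell genes summed to 3.18, 2.49, 1.29 and 0.499, with *Cd79b* at 1.51, 1.31, 0.531 and 0.0754. Genes of small intestinal enterocytes summed to 137, 160, 1.36 and 11.7, of which *Fabp2* made up 133, 156, 0.614 and 6.10. Their part in the mucin values was not tested.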

How the data were processed

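Each of 4 groups was 1 pool on 1 array of a single slide, and 27.7 ng of RNA per pool was labeled with Cy3. The authors deposited spot intensities from Agilent Feature Extraction 11.5.1.1, background-subtracted and detrended per the file headers but not scaled between arrays. The deposited table of values is a ratio of each intensity to the 75th percentile of that array. Here, control and outlier spots were left out, log2 intensities of replicate spots were averaged to 39429 probes, and the 75th percentile was subtracted. Probes were named through a RefSeq table of GRCm38.p6, used for names, and probe coordinates are those of the array files (mm9). A gene was represented by its probe with the highest mean signal. Where 1 of 2 signals was not well above background, the dim side took the higher of its own signal and that array's lowest signal called well above background, and the ratio is a bound ("at least"); where both were not, none was formed. The threshold was 2-fold. Precision is limited by the number of arrays, and with 1 per group no test was possible. Named genes were all member probes and, of each fixed list, the 3 brightest (2 for cell type lists) and the 3 largest changes past 2-fold in each direction of a comparison described. A gene of the granule release list that this rule takes is not reported here. The members and lists were chosen with earlier results of these data known. The alternatives were quantile normalization, no scaling, median scaling, normexp (offset 50) with quantile normalization in limma 3.58.1 (R 4.3.3), both arrays above background, dim probes unfiltered, averaging a gene's probes, the dimmest probe, the deposited table, and thresholds of 1.5-fold and 4-fold. Tables and figures used Python 3.11.15, pandas 2.3.3, numpy 2.4.6 and matplotlib 3.10.9.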

Additional observations from a re-analysis of the deposited data

Results flagged for a closer look

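The brighter *Muc3* probe moved past 2-fold in opposite directions with AOM in the 2 genotypes, with a log2 AOM/vehicle ratio of −1.69 in WT and 2.30 in the pools labeled KO. The WT ratio was −0.99 with quantile normalization and −0.67 without scaling, neither past 2-fold. The *Muc3* repeat probe moved past 2-fold in opposite directions between the labeled genotypes, with a log2 KO/WT ratio of −4.33 with vehicle and 3.43 after AOM. Each value is a ratio of 2 arrays, and the difference was not tested in either case. No other mucin probe met this condition, and with 1 array per group no sample could be compared with others of its group.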

How the results depend on the processing

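The 4 mucins over 2-fold higher in the KO/WT comparison after AOM stayed at 4 under 9 of the alternatives other than the fold thresholds, and were 5 at 1.5-fold and 3 at 4-fold. Other counts moved. For KO/WT after AOM, the 1 lower gene was 0 with quantile normalization, median scaling, normexp with quantile normalization and at 4-fold, and 2 at 1.5-fold. For KO/WT with vehicle, the 0 lower genes became 1 with the mean over the probes and with the dimmest probe, in both cases *Muc3*. For AOM/vehicle in WT, the 3 lower genes became 1 with quantile normalization, without scaling and at 4-fold, and 2 with normexp and quantile normalization and with the dimmest probe. The 2 higher genes became 3 without scaling, and 0 with normexp and quantile normalization and at 4-fold. They became 1 with both arrays above background, the mean over the probes and the dimmest probe. For AOM/vehicle in the pools labeled KO, the 2 higher genes became 6 without scaling and 1 with both arrays above background. They became 3 with quantile normalization, with normexp and quantile normalization and at 1.5-fold. The ratio of *Muc20* for AOM/vehicle in WT changed sign with the dimmest probe, from 1.19 to −0.55. Without scaling, the median log2 ratio of all genes rose from −0.17 to 0.87 in WT and from −0.08 to 0.76 in the pools labeled KO, and the share of genes past 2-fold that were higher rose from 40.3% to 86.3% and from 39% to 91.1%; it was 49.2% and 48.3% with quantile normalization and 50.7% and 50.6% with normexp and quantile normalization. *Muc2* stayed below 0 in WT in all of these, between −2.95 and −1.90. No paired analysis was possible because each group is 1 array, and for the same reason no replicate could be left out.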
